A study of Homo sapiens with 12 samples.

Results

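A549 is a human lung adenocarcinoma cell line that grows as an epithelial sheet. The comparison described here sets a derivative of A549, whose genotype label gives a knockout of the miR-22 target site in SNAI1, against wild-type A549, both without TGFβ and both harvested at day 5. Each line gave 3 libraries labelled as biological repeats. The same pair of lines was also grown with 10 ng/mL TGFβ, the inducer of epithelial-mesenchymal transition in this study, again with 3 libraries each, which makes 12 libraries in all. All cells grew in RPMI-1640 medium with 10% fetal bovine serum. The labels do not say whether the edited line is 1 clone or a pool, and there is 1 edited derivative, so the edit and the history of that derivative cannot be told apart in any difference below. A gene entered the comparison if 3 or more of the 12 libraries had a normalized count of 10 or higher, which left 20456 of 58830 entries, and 6 libraries enter the contrast itself. A normalized count is the number of reads assigned to a gene divided by a size factor of its library, with no correction for gene length. The only error the p-values carry is the variation among these repeats.

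miR-22 is a microRNA processed from the non-coding transcript MIR22HG. A microRNA guides the silencing complex to messenger RNAs that pair with its seed, bases 2 to 8 from its 5′ end, and lowers their stability or translation. SNAI1 encodes Snail, a zinc-finger repressor that binds promoters of epithelial genes such as CDH1 and acts early in epithelial-mesenchymal transition. Removing a target site leaves the microRNA itself and its sites in other messenger RNAs in place. The mature microRNA is shown because its seed defines the edited link, with the seed in capitals, and it lies on the minus strand of chromosome 17 in GRCh38.p14 (1713914 to 1713935, RefSeq).
hsa-miR-22-3p: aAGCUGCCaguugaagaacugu

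The 3′ untranslated region of SNAI1 is 830 bases long in GENCODE 29 and holds 2 stretches that pair with the whole seed. Both are shown on the plus strand with the seed match in capitals, the first at chr20:49988269-49988293 and the second at chr20:49988563-49988587 (GRCh38). The first match starts at base 228 of the untranslated region and the second, which is followed by an A, at base 522. The labels do not say which of them was edited.
SNAI1 site 1: tttctgtggagggagGGCAGCTggc
SNAI1 site 2: gatgccccgagcccaGGCAGCTatt

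Library totals ranged from 84210775 to 111141708 assigned reads, and the deposited values were whole multiples of 1 read in all 12 libraries within a tolerance of 0.01 reads. Across the 6 untreated libraries the first principal component carried 44.6% of the variance and separated the lines. The second, with 15.5%, set wild-type repeat 1 (score -44.3) and repeat 3 (43.8) at opposite ends, so the wild-type repeats were spread more than the edited ones along it. Mitochondrially encoded transcripts took 2.54% to 2.83% of the values in wild-type libraries and 2.23% to 2.51% in edited libraries, with no overlap. The part of that share in the gene results was not tested. Epithelial keratins marked both lines: KRT8 stood at 330222, 317175 and 323732 in wild type and 348267, 351081 and 339384 in the edited line, and KRT18 at 197574, 184877 and 186130.0 and 185225, 189069 and 181413, neither called. Summed markers of other cell types were near the level of single weakly expressed genes for fibroblasts (137 to 180 in wild type, 171 to 252 edited), endothelium (117 to 160 and 145 to 185), tuft cells (107 to 147 and 151 to 215) and leukocytes (337 to 423 and 317 to 342). NEUROD1, INSM1, ELAVL4 and CHAT had no read in any untreated library. The neural and neuroendocrine sum was large in both lines (14964 to 15982 and 19062 to 21584). It consisted mostly of CHGB, a secretory granule protein, which rose from 9429, 8801 and 8393 to 16441, 14092 and 15650.2, and MAP2, a microtubule-associated protein, which fell from 4984, 5861 and 5389 to 3838, 3725 and 3784. The alveolar type 2 sum rose from 864 to 942 in wild type to 1528 to 1702 in the edited line through LAMP3 (1.52) and ABCA3 (0.55, both log2 fold changes), while SFTPC, the defining surfactant gene, stayed under 7 in every untreated library.

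SNAI1 itself was not called different between the untreated lines. Its normalized counts were 510.4, 400.4 and 576 in wild type and 513, 499 and 432 in the edited line, so the lines overlapped throughout. The log2 fold change, edited against wild type, was -0.031 ± 0.13 (SE) (adjusted p = 0.88), and leaving out single libraries moved it between -0.18 and 0.085. Under TGFβ the same transcript was 0.59 log2 units higher in the edited line (adjusted p = 0.0068), with 958, 897 and 768 in wild type against 1406, 1214 and 1318. That contrast was larger than the untreated one by 0.62 (adjusted p = 0.028). MIR22HG, the host transcript of miR-22, had 2338, 2836 and 2423 in wild type and 2543, 2994 and 2768 in the edited line, a difference of 0.13 ± 0.084 (SE) that was not called. The labelled edit removes a target site and not the gene, so neither transcript checks the genotype.

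Over all genes tested, 31.8% were called either way. Of the 5 tested genes on each side of SNAI1 on chromosome 20, 7 were not called. Among the others, SLC9A8, a sodium-proton exchanger, was higher in the edited line, with a log2 fold change of 0.35, and TMEM189 was lower (-0.33, from 2840.1, 2281 and 2680.2 to 2112, 1959.7 and 2118). That call was lost without wild-type untreated repeat 1 (adjusted p = 0.062) and without edited untreated repeat 2 (0.050). TMEM189 is joined to its neighbour UBE2V1 by a read-through transcript, so reads may be split between them. CEBPB and its antisense transcript CEBPB-AS1 overlap, and the labels do not say whether strand was used in counting.

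Across the 20456 genes, 2927 (14.3%) were called higher and 3587 (17.5%) lower in the edited cells, at an adjusted p under 0.05. Every count below should be read against that background of 31.8% called either way. Most differences were small. The median size of the log2 fold change over all genes was 0.27, and 612 of the higher and 412 of the lower genes passed 2-fold. At 4-fold and beyond there were 147 higher and 62 lower. The 3 libraries of one line lay wholly above or below the 3 of the other for 48.8% of genes (23.7% higher, 25.1% lower). The median log2 fold change over all genes was 0.0021, so the deposited scaling centres the comparison.

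**Figure D1:**
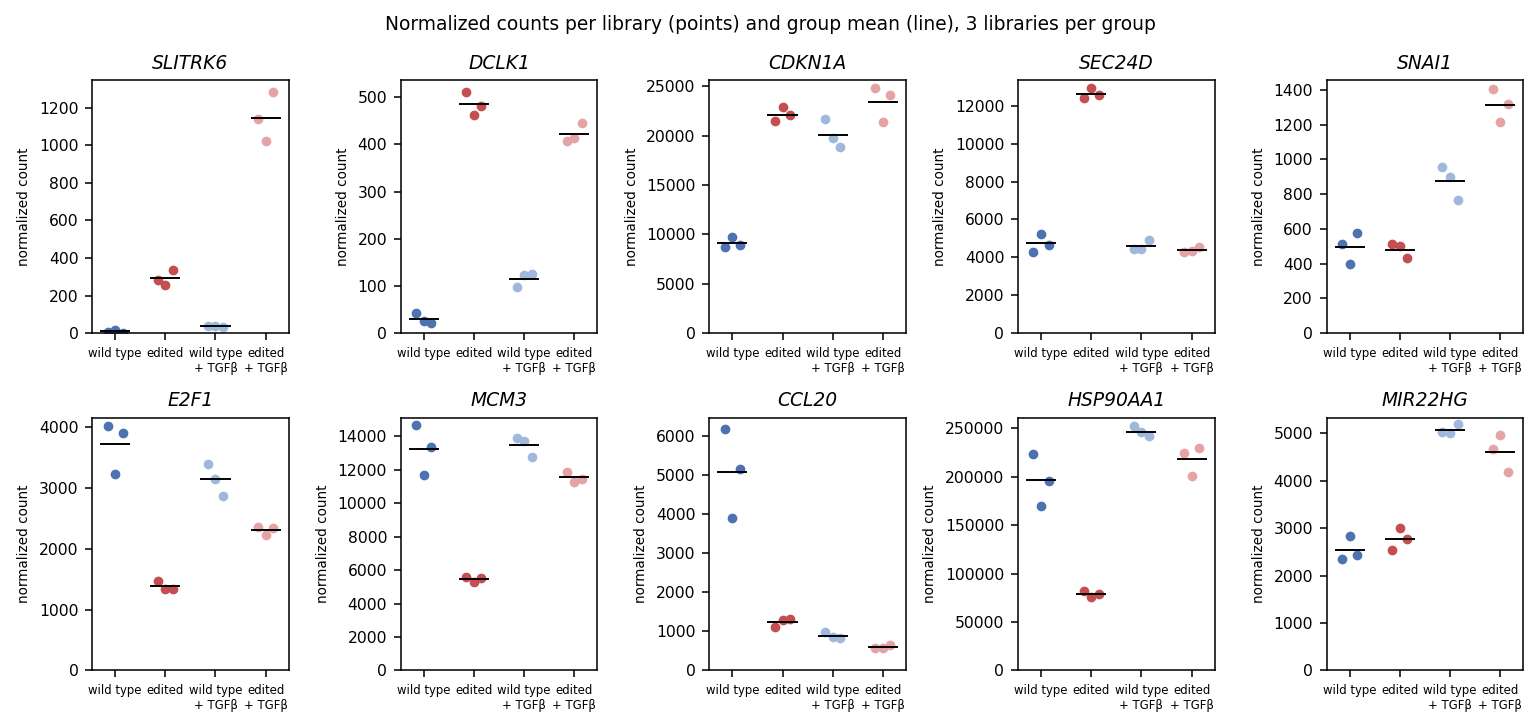
Normalized counts (vertical axes, linear and starting at 0) of 10 genes in the 12 libraries; each point is 1 library, each line the mean of 3 libraries, and the 4 groups are wild type and edited line without and with TGFβ. SLITRK6, DCLK1, CDKN1A and SEC24D lie higher and E2F1, MCM3, CCL20 and HSP90AA1 lower in the untreated edited libraries, with no overlap, while SNAI1 and MIR22HG overlap.

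A set of 5 transcripts shows the scale of the untreated contrast. SLITRK6, a membrane protein of the SLITRK family that organizes synapses and sensory innervation, was close to absent from wild type at 5.98, 16.5 and 2.15 and reached 283, 254 and 337 in the edited line. Every edited library stood more than 10-fold above every wild-type library. The log2 fold change was 5.32 ± 0.41 (SE) (adjusted p = 1.3e-07), and it was 5.95 without wild-type untreated repeat 2 and 4.72 without repeat 3. DCLK1, a microtubule-associated kinase used as a tuft cell and stem cell marker in gut and pancreas, went from 41.9, 24.7 and 21.5 to 512, 462 and 481. It rose by 4.06 ± 0.20 (SE) (adjusted p = 2.2e-09). The tuft cell lineage factor POU2F3 was at 0 in all wild-type libraries and reached at most 2.45 in an edited one. In the list of 8 tuft cell markers 2 could be tested, and 1 of them was called higher (median 0.69). The number higher was 0 to 2 on leaving out single libraries.

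CDKN1A, which encodes the cyclin-dependent kinase inhibitor p21, had 8677, 9722 and 8903 in wild type and 21471, 22854 and 22058 in the edited line. Both sets were tight and far apart, with a log2 fold change of 1.28 ± 0.07 (SE) (adjusted p = 4.3e-09). CCL20, the chemokine that recruits CCR6-bearing lymphocytes and dendritic cells, fell from 6182, 3908 and 5153 to 1113, 1291 and 1315, a change of -2.01 ± 0.13 (SE) (adjusted p = 2.4e-08). Its wild-type libraries varied among themselves by more than the edited ones did, yet the lowest of them was about 3 times the highest edited one. E2F1, the transcription factor that drives entry into DNA synthesis, fell from 4016, 3222 and 3905 to 1470.2, 1345 and 1341, by -1.42 ± 0.086 (SE) (adjusted p = 1.1e-08).

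CDH12, a neuronal cadherin, showed the sharpest difference of presence. No read was assigned to it in any untreated wild-type library, whereas the edited libraries had 113, 129 and 119. Against a floor of 3 reads in each wild-type library it was at least 41.5-fold higher. With TGFβ the wild-type libraries reached 16.5, 11.5 and 17.7 and the edited ones 243, 227 and 224. No gene met the mirror condition of 0 reads in all edited and at least 20 in all wild-type libraries. Clone names, LOC names and names turned into dates were passed over in that search.

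Several of the genes that rose most are known from neurons. CHL1, an L1-type adhesion molecule, went from 77.8, 103 and 54.8 to 776, 566 and 752 and ADGRL3, a latrophilin that binds teneurins across synapses, from 149, 169 and 118 to 923, 893 and 893. Their log2 fold changes were 3.17 ± 0.25 (SE) (adjusted p = 1.8e-07) and 2.64 ± 0.15 (SE) (adjusted p = 7.2e-09), and neither set of libraries overlapped. NTRK3, the receptor tyrosine kinase for neurotrophin-3, rose from 500.4, 644 and 532 to 3342, 3335 and 3119 (2.55 ± 0.08 (SE), adjusted p = 1.4e-11). SEMA5A, a semaphorin that guides axons, rose from 44.9, 50.3 and 46.2 to 392, 357 and 362 (2.95 ± 0.25 (SE)). CALCB, which encodes a calcitonin gene-related peptide, rose from 226, 329 and 175 to 1942, 2340.4 and 1797 (3.09 ± 0.20 (SE)).

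In the list of neuronal adhesion molecules, 17 of 24 members were expressed enough to test. Among those, 9 were higher and 2 lower, with a median log2 fold change of 0.50 beside 0.0021 over all genes. The summed normalized counts of the list ran opposite to that median. Every edited library had a smaller sum (lowest 47515.4, highest 53981.6) than any wild-type library (lowest 57699.6, highest 61845.7). The median thus describes the members one by one and not their total signal. Besides SLITRK6, CHL1 and ADGRL3, the presynaptic receptor NRXN3 rose from 12, 18.9 and 11.8 to 71.2, 85.8 and 112 (2.58), SLITRK5 from 304, 325 and 374 to 603, 589.9 and 673 (0.90) and the teneurin TENM3 from 97.7, 110.4 and 114 to 187, 166 and 228 (0.84). TENM2 rose as well (2.55) but from counts under 5 to counts of 31, 11.8 and 30.2. The protocadherin PCDH9 moved the other way, from 9185, 8993 and 9135 to 4904, 4510.3 and 5114 (-0.91 ± 0.063 (SE), adjusted p = 4e-08), and so did the contactin CNTN1 (-0.39). These lists are described by counts and medians, and no test compared them with other genes.

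Axon guidance genes split in both directions. Of 24 tested members 10 were higher and 6 lower, with a median of 0.00. EPHB2, an ephrin receptor that sorts cells at epithelial borders, rose from 549.3, 554 and 546 to 1617, 1959 and 1787 (1.70 ± 0.067 (SE), adjusted p = 1.9e-10). NRP2, a semaphorin and VEGF co-receptor, rose from 3278, 2804 and 3101 to 6922, 5779 and 6635 (1.07), and the netrin receptor UNC5B rose by 0.98. The ligands NTN1, EFNA1 and SEMA3A fell. NTN1 (netrin-1) had 1874, 1915 and 1811 in wild type and 709, 733 and 678 in the edited line, a change of -1.40 ± 0.073 (SE) (adjusted p = 3.1e-09). EFNA1, an ephrin ligand, fell from 8023, 7571 and 8169 to 3972, 3885 and 4164 (-0.98) and the repulsive semaphorin SEMA3A from 5261, 4744 and 5049.9 to 2367, 2486 and 2774 (-0.98).

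Other large increases were found in genes of several kinds. CRISP3, a cysteine-rich secretory protein, rose from 99.7, 71.7 and 81.6 to 976, 969 and 935 (3.51 ± 0.27 (SE), adjusted p = 1.3e-07). S100A9, a subunit of calprotectin, rose from 146, 136 and 113 to 976, 808 and 942 (2.78 ± 0.20 (SE)), and GGT5, a gamma-glutamyltransferase that acts on leukotriene C4, from 109.7, 74.1 and 91.3 to 598, 652 and 575 (2.73 ± 0.33 (SE)). The long non-coding RNA LINC01433 rose from 185, 173 and 168 to 1468, 1489 and 1329 (3.02 ± 0.12 (SE)). UGT2B11, a UDP-glucuronosyltransferase, rose from 30.9, 23.9 and 29 to 153, 225 and 257 (2.85 ± 0.65 (SE)).

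Among decreases, clone and LOC names aside, HYAL4 and OLR1 changed most of the genes with a mean of at least 100 over the 6 libraries. HYAL4, a hyaluronidase-family enzyme that cleaves chondroitin sulfate, fell from 209, 194 and 207 to 48.5, 30 and 30.2 (-2.49 ± 0.42 (SE), adjusted p = 0.00029). OLR1, a scavenger receptor for oxidized lipoprotein, fell from 352, 437 and 414 to 66, 79.4 and 94 (-2.32 ± 0.21 (SE)). PALM3 fell from 233, 234 and 225 to 88.7, 49.3 and 36.8 (-2.06 ± 0.24 (SE)) and ANKS1B, a scaffold of the postsynaptic density, from 176, 165 and 167 to 37.1, 49.3 and 36 (-2.04 ± 0.20 (SE)). The water channel AQP4 fell from 423, 335 and 408 to 97, 98.7 and 119 (-1.88 ± 0.19 (SE)). PRSS35, a trypsin-like protein, and CALCRL, the receptor subunit for CGRP and adrenomedullin, fell by -1.82 and -1.77 in log2 terms. H19, an imprinted long non-coding RNA, fell from 2361, 1820.0 and 2179 to 672, 612 and 665 (-1.70 ± 0.27 (SE)).

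UGT1A7 fell from 478, 377 and 419 to 124, 92.2 and 118 (-1.93 ± 0.13 (SE), adjusted p = 2.9e-08), UGT1A1 from 1141, 1055 and 1098 to 563, 493 and 581 (-1.01) and UGT1A9 by -0.64. These genes conjugate bilirubin and drugs to glucuronic acid. The UGT1A genes share all but their first exon, so how reads were assigned to single UGT1A genes is uncertain. UGT2B4, in another locus, was higher (1.98), so 3 of the 9 tested glucuronosyltransferases were lower and 2, UGT2B4 and UGT2B11, higher.

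Among genes with a mean of at least 5000, clone and LOC names aside, the largest rise was in SEC24D. SEC24D is a cargo-binding subunit of the COPII coat that carries proteins from the endoplasmic reticulum. It had 4294, 5231 and 4664 in wild type and 12393, 12914 and 12555 in the edited line (1.42 ± 0.07 (SE), adjusted p = 2e-09). The mucin MUC5B rose from 11329, 12992 and 13972 to 36579, 30523 and 34381 (1.41 ± 0.13 (SE)), the keratin KRT80 from 5341, 7885 and 6268 to 15023, 19757 and 15779 (1.38 ± 0.12 (SE)) and PHLDB2, which anchors cortical microtubules, from 6139.8, 7716 and 7035 to 16050.2, 17115 and 17451 (1.28 ± 0.094 (SE)). SMOC1, a secreted calcium-binding matrix protein, and SLC16A4, a member of the monocarboxylate transporter family, also rose. SMOC1 went from 11079, 12160.5 and 11150.5 to 25968, 25304 and 25638 (1.16 ± 0.064 (SE)) and SLC16A4 from 27841, 27672 and 27093 to 58484, 62524 and 63709 (1.16 ± 0.061 (SE)).

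The abundant genes that fell were led by SLC2A3, the neuronal-type glucose transporter GLUT3, from 29264, 29073 and 29823 to 10729.7, 10926 and 11563 (-1.41 ± 0.058 (SE), adjusted p = 2.9e-10). HSP90AA1, the inducible cytosolic HSP90 chaperone and one of the most abundant messenger RNAs here, fell from 224031, 170389 and 195509 to 81878, 76074 and 79143 (-1.31 ± 0.09 (SE)). All 3 wild-type libraries lay above all 3 edited ones although the wild-type values were themselves uneven. NR4A2, an orphan nuclear receptor, fell from 11636, 9795 and 11635 to 4522, 4717 and 5157 (-1.20 ± 0.084 (SE)) and MGAT5, which branches N-glycans, from 20905, 19584 and 20667 to 9678, 8166 and 9168 (-1.18 ± 0.076 (SE)). The rest of the 8 largest decreases at a mean of 5000 or more were RRM2, MCM3, EXO1 and WDHD1, genes of DNA synthesis and repair.

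**Figure D2:**
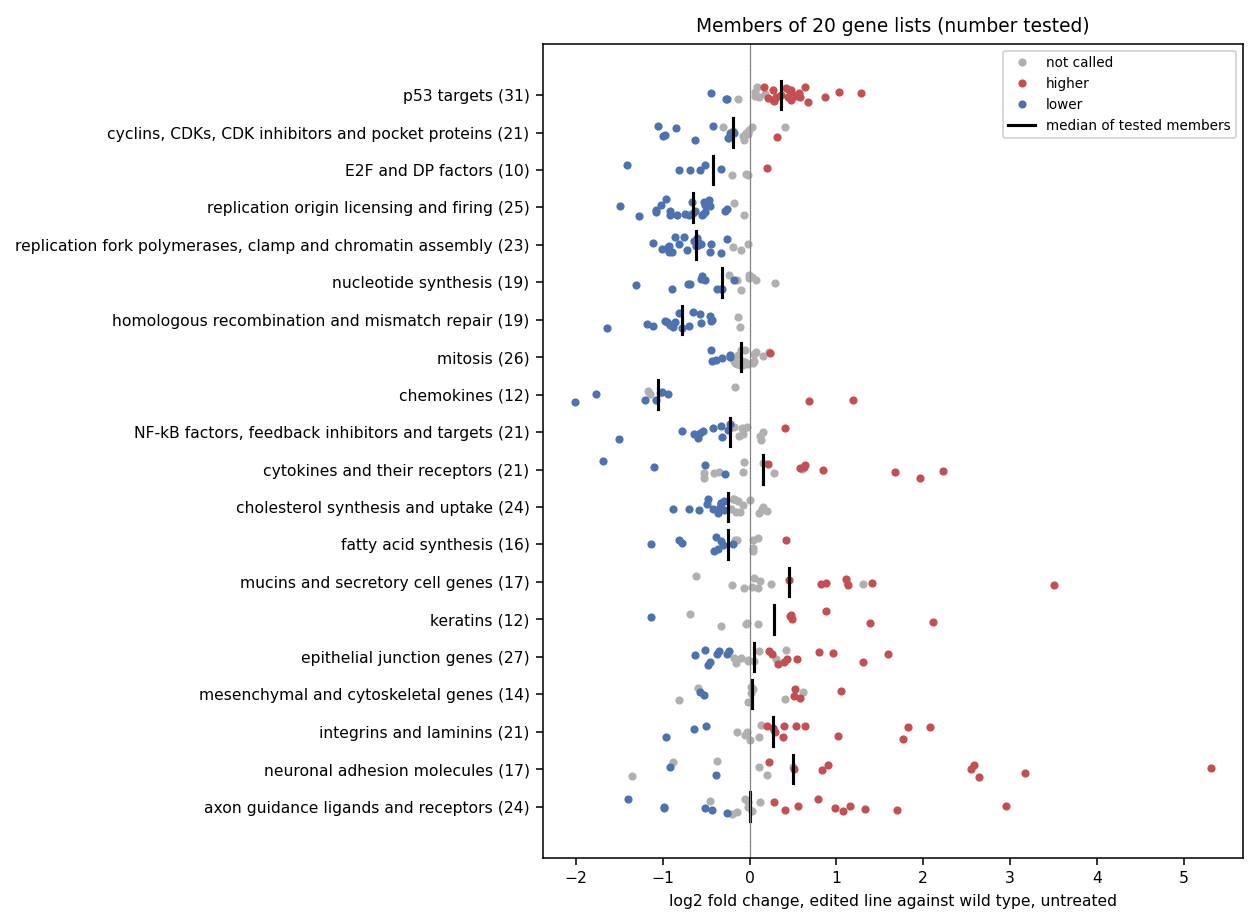
Log2 fold change of the edited line against wild type, untreated (horizontal axis), for the tested members of 20 gene lists (rows, number tested in brackets); points are genes, red called higher, blue called lower, grey not called, and black bars are medians. The licensing, fork and recombination lists lie almost wholly below 0 (medians -0.65, -0.61 and -0.78), whereas the mitosis list is centred at -0.10 and the p53 list at 0.36.

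Most genes of DNA synthesis were lower in the edited line. In bulk RNA, fewer cells of a kind and less RNA per cell cannot be told apart. Replication begins when ORC, CDC6 and CDT1 load the MCM2 to MCM7 helicase onto origins, and CDC45 and the GINS complex switch it on. E2F factors transcribe these genes as cells leave G1. Of 25 licensing and firing genes 23 were lower and none higher, with a median log2 fold change of -0.65. MCM3 fell from 14647, 11707 and 13390.2 to 5576, 5295 and 5518 (-1.27 ± 0.071 (SE), adjusted p = 4.8e-09), MCM6 from 16026, 15388 and 15479 to 7749, 7739.9 and 7566 (-1.02 ± 0.051 (SE), adjusted p = 2.2e-09) and GINS2 from 3498, 2778 and 3222 to 1153, 1068 and 1135 (-1.49 ± 0.094 (SE)). The edited libraries lay close together and below every wild-type library in each case. CDT1 was lower as well (-1.08), as were MCM2 (-0.97) and MCM5 (-0.84). The 2 members not called were CDC6, at 7757, 8658 and 7933 in wild type and 7484, 8269.8 and 7438 in the edited line, and TICRR (-0.18).

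At the replication fork 20 of 23 genes were lower and none higher (median -0.61). POLD1, the catalytic subunit of polymerase delta, fell from 3226, 3342 and 3546 to 1662, 1639 and 1734 (-1.01 ± 0.062 (SE), adjusted p = 1.3e-08). CHAF1B, which deposits histones behind the fork, fell from 4063, 3653 and 3816 to 1681, 1874 and 1785 (-1.11 ± 0.067 (SE)). The sliding clamp PCNA was an exception, with 29559.6, 24889 and 26134 in wild type and 25089, 24232 and 25585 in the edited line (-0.10, not called), as were POLA1 (-0.19) and POLD2 (-0.024). KIAA0101, the PCNA-associated factor, fell from 1885, 1091 and 1554 to 409, 317 and 523 (-1.85 ± 0.17 (SE)), and WDHD1, which links the helicase to polymerase alpha, from 9250.1, 8413 and 8822 to 4039, 3773 and 4080.3 (-1.15 ± 0.075 (SE)).

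Nucleotide supply followed in part. RRM2, the cell-cycle-regulated subunit of ribonucleotide reductase, fell from 30876, 29562 and 29526 to 11428, 12882 and 11983 (-1.31 ± 0.072 (SE), adjusted p = 4.3e-09), and thymidine kinase TK1 from 8034, 6702 and 7435 to 3959.7, 3809.9 and 4163 (-0.89). Thymidylate synthase TYMS also fell (-0.55). In total 11 of 19 nucleotide synthesis genes were lower and none higher, with a median of -0.32.

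Homologous recombination and mismatch repair genes showed the lowest median of these lists, -0.78, with 17 of 19 lower and none higher. RAD54L, which drives strand invasion, fell from 1195, 978 and 1205 to 295, 365 and 426 (-1.64 ± 0.13 (SE), adjusted p = 1.3e-07). The exonuclease EXO1 fell from 10037, 10031 and 9672 to 4046, 4721 and 4335 (-1.19 ± 0.063 (SE)), and UHRF1, which copies DNA methylation after replication, from 4154, 3387 and 4203 to 1762, 1773 and 1876 (-1.11 ± 0.073 (SE)). FANCA of the Fanconi pathway fell by -0.98. BRCA2 (-0.14) and PALB2 (-0.11) were not called.

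Of the 10 E2F and DP genes 6 were lower. Besides E2F1 these included E2F7 (-0.81) and E2F8 (-0.69), the repressor E2Fs that are themselves E2F targets. E2F4, the pocket-protein-bound repressor, was called higher at 0.20, a call lost without wild-type untreated repeat 1 or 3 and without any 1 of the 3 edited untreated libraries, and E2F3 (-0.017) was not called. The G1/S cyclin CCNE1 fell from 636, 606 and 599 to 302, 311 and 309.8 (-0.99 ± 0.088 (SE), adjusted p = 5.7e-07) and its kinase CDK2 from 3216, 3035 and 3028 to 1602, 1641 and 1468 (-0.98 ± 0.068 (SE)). The D cyclins parted: CCND3 fell from 37758, 33347 and 37010.3 to 20258, 19555 and 20249.5 (-0.85) and CCND1 rose from 28760.1, 31488 and 29628 to 36706, 38368 and 36863 (0.32). Over the 21 tested cyclins, kinases, kinase inhibitors and pocket proteins, 10 were lower and 1, CCND1, was higher (median -0.19).

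The promoters of these genes were searched for the E2F motif TTTNGCGC on both strands, in the 250 bases before and 50 after the RefSeq start (GRCh38.p14). It occurred in 2.80% of the 9067 promoters available for tested genes and in 15 of 45 (33.3%) of the members of the 5 DNA synthesis and E2F lists that were lower. The motif was present in 17 of 58 (29.3%) of all members of these lists, whatever their call. E2F factors transcribe many of these genes, so the gap to all promoters is not a test. Of 12 members not called 2 held it, among them CDC6. Over all genes it was present in 4.16% of promoters of lower genes and 1.98% of higher genes. A match is a description of the letters and not a binding site. The promoters of E2F1 (chr20:33686336-33686635) and MCM6 (chr2:135876394-135876693), both on the minus strand, are shown because both genes fell by more than 2-fold. Matches are in capitals. MCM6 has 4 matches that overlap in pairs because each pair reads on both strands, and E2F1 has 1.
E2F1: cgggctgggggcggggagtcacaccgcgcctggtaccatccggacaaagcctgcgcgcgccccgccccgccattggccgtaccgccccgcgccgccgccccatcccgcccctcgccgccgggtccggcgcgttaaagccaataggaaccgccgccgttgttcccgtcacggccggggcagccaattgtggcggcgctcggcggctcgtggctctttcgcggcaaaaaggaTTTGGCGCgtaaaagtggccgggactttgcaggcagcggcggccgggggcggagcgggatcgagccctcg
MCM6: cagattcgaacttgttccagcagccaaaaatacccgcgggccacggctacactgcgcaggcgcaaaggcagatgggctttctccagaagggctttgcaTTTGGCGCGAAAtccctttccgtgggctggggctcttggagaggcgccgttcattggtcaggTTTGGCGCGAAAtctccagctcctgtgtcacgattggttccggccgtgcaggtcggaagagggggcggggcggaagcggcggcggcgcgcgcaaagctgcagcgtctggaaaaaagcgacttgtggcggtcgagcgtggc

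Mitotic genes showed a smaller shift. Of 26 tested, 6 were lower and 1, INCENP, higher (0.24, a call lost on leaving out any single library other than wild-type TGFβ repeats 1 and 3), with a median of -0.10. TOP2A, which decatenates chromosomes, stood at 87611, 100461 and 94949 in wild type and 102955, 94094 and 100216 in the edited line, and the proliferation marker MKI67 at 12780.1, 14245 and 13813 and 13919.7, 12438 and 12930.0. Both sets overlapped and neither gene was called. PLK1 was not called either (0.038). KIF23, a kinesin of the central spindle, was lower (18695, 17991 and 18440.2 against 12946, 13807 and 13709.7, -0.45 ± 0.054 (SE)). The number of lower mitotic genes was 4 without wild-type untreated repeat 1 or 3 or edited untreated repeat 1, and 9 without wild-type TGFβ repeat 1 or 3.

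p53 is a stress-activated transcription factor, intact in A549, whose targets halt the cycle, repair DNA or promote apoptosis. Of 31 direct targets 22 were higher, 3 lower and 6 not called, with a median of 0.36. After CDKN1A, the RNA-binding protein gene ZMAT3 rose from 2226, 2161 and 1954 to 4238, 4099 and 4618 (1.03 ± 0.077 (SE), adjusted p = 1e-07) and PLK3, a stress kinase, from 705, 689 and 700.4 to 1043, 1155 and 1148 (0.67). SPATA18, which acts in mitochondrial quality control, and PHLDA3, an AKT inhibitor, rose by 0.63 and 0.58. MDM2, the ubiquitin ligase that degrades p53, rose from 14034, 14087 and 13645 to 16569, 16413 and 18446, which is a small step on the log2 scale (0.30 ± 0.064 (SE), adjusted p = 0.002). The 3 that fell were CCNG1 (-0.44) and PPM1D (-0.27), which restrain p53 signalling, and the kinase PLK2 (-0.26). GDF15, a secreted stress cytokine, had 19700.4, 18181 and 19834 in wild type and 19598, 20504 and 20198 in the edited line and was not called.

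**Figure D3:**
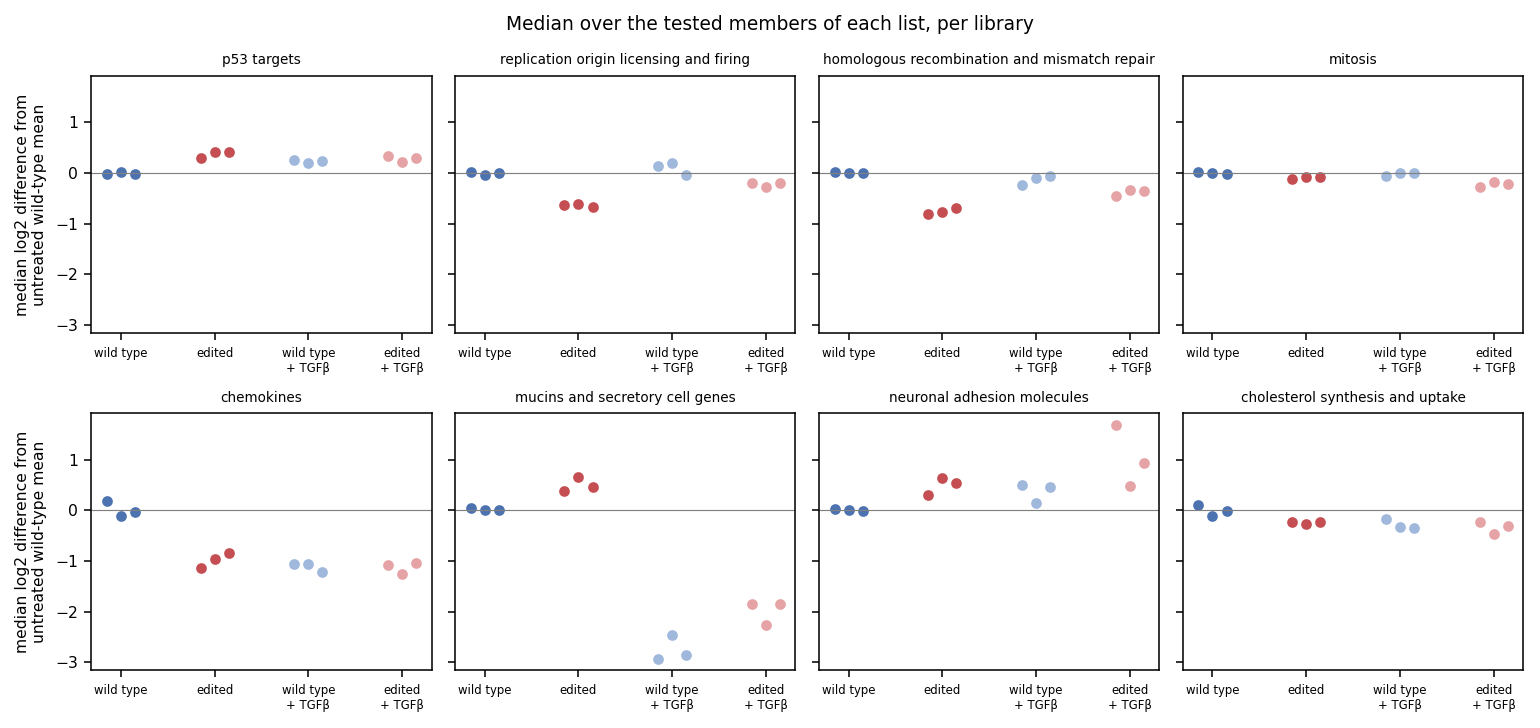
Median over the tested members of 8 gene lists in each of the 12 libraries (points), as the log2 difference of each member from its untreated wild-type mean (vertical axis, shared by all panels); the 4 groups on the horizontal axis are wild type and edited line without and with TGFβ. The untreated edited libraries lie below the untreated wild-type ones for the licensing, recombination and chemokine lists and above them for the p53, secretory and neuronal adhesion lists.

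Chemokines are secreted attractants for leukocytes, and the CXCL1 to CXCL8 group, CCL2 and CCL20 are classical targets of NF-κB in epithelium. Of 12 tested (17 in the list) 6 were lower, 2 higher and 4 not called, with a median log2 fold change of -1.06. The members not called included CXCL5 (-0.17) and CXCL10 (-1.15). Summed normalized counts of the list overlapped between the lines. Edited libraries spanned 71161.5 to 86766.3, whereas the wild-type range ran from 84423 up to 109521. The median therefore describes single members and not the total chemokine signal. CCL2, which recruits monocytes, fell from 2015, 1489.6 and 1450.2 to 473, 483 and 481 (-1.77 ± 0.10 (SE), adjusted p = 7.2e-09). CXCL8 (interleukin-8) fell from 8057, 6845 and 6589 to 2918, 3877 and 3363 (-1.09 ± 0.094 (SE), adjusted p = 4.9e-07). The edited libraries lay below every wild-type library for both. CXCL3 fell from 2641, 1946 and 2139 to 839.8, 1087 and 987 (-1.20 ± 0.12 (SE)), CXCL1 from 2753, 1857 and 2084 to 954, 1230.3 and 1105 (-1.01 ± 0.13 (SE)) and CXCL2 from 6093, 5101 and 5019 to 2433, 2993 and 3021 (-0.94 ± 0.093 (SE)). CXCL1, CXCL2 and CXCL3 are near-identical in parts of their sequence, so reads may be shared among them. The membrane-bound CXCL16 rose from 4341, 3905 and 4113 to 6713, 6590.1 and 6559 (0.69), and CCL26 was called higher at counts under 20 (1.19), a call lost without wild-type untreated repeat 1 or 2 or any 1 of the edited untreated libraries.

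Among 21 NF-κB factors, feedback inhibitors and targets, 11 were lower and 1 higher, with a median of -0.22. ICAM1, the leukocyte adhesion molecule, fell from 1522, 1339.6 and 1544 to 568, 452 and 530.5 (-1.51 ± 0.11 (SE), adjusted p = 7.4e-08), and BIRC3, an inhibitor of apoptosis, from 27219.9, 24386 and 26630.0 to 14126, 15542 and 15937 (-0.78). NFKBIA, which holds NF-κB in the cytoplasm (-0.43), the ubiquitin-editing inhibitor TNFAIP3 (-0.60) and the nuclear IκB protein NFKBIZ (-0.64) fell as well. ZC3H12A, a nuclease that degrades cytokine messages, was the member that rose (0.41).

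An NF-κB motif, searched on both strands of the same windows, occurred in 1.56% of the 9067 promoters. It was present in 5 of 12 lower members of the chemokine, cytokine and NF-κB lists with a promoter in the table, in 4 of 10 members not called and in 0 of 5 higher members. The CXCL3 promoter (chr4:74038640-74038939, minus strand) is shown as the member with the lowest log2 fold change among those with a match. Its 2 matches, in capitals, overlap, one on each strand.
CXCL3: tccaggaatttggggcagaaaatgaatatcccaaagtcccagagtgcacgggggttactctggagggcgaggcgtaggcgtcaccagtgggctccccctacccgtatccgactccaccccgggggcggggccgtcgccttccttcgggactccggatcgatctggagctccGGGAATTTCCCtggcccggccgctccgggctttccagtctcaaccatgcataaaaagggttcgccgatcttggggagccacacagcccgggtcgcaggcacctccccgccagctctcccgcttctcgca

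Cytokines did not move one way. Of 21 tested cytokines and receptors 8 were higher and 4 lower (median 0.16). IL11, a TGFβ-inducible member of the IL6 family, rose from 1614, 1649 and 1618 to 6120.0, 6653 and 6269 (1.96 ± 0.06 (SE), adjusted p = 1.4e-11), and the epithelial alarmin IL33 from 17.9, 33 and 39.7 to 145, 147 and 123 (2.23 ± 0.29 (SE)). IL15 rose from 401, 312 and 354 to 630.4, 655 and 632 (0.85). TNF fell, at low counts, from 40.9, 26.4 and 25.8 to 6.19, 10.7 and 9.81 (-1.69), and the IL6-family signalling receptor IL6ST fell from 43690.4, 46057 and 46775 to 29982, 31182 and 34459 (-0.52). LIF fell by -0.28. IL1A, the fourth lower call (-1.10), was not separated between the lines. It lost its call without wild-type untreated repeat 1 or 2 and without edited untreated repeat 2 or 3. Without edited untreated repeat 2 its log2 fold change was -0.69. Immediate early genes fell in the same libraries: JUN, an AP-1 subunit, from 11249.8, 11627 and 11727 to 5607, 6857 and 6076 (-0.90), and FOSB from 1389, 1984 and 1709 to 758, 747 and 812 (-1.12). In the list of immediate early and heat shock genes 7 of 10 were lower. The 2 higher ones were HSPA1A (0.47) and its near-identical copy HSPA1B, whose reads cannot be separated with certainty.

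Lipid synthesis genes were lower in part. Of 24 cholesterol synthesis and uptake genes 12 were lower and none higher (median -0.25), and of 16 fatty acid genes 9 were lower and 1, GPAM, higher (median -0.25). FADS2, a desaturase of polyunsaturated fatty acids, fell from 32913, 26933 and 30887 to 13819, 13227 and 13989 (-1.14 ± 0.082 (SE), adjusted p = 7.2e-08). SCD, which makes monounsaturated fatty acids, fell from 104368, 94479 and 100284 to 59358, 52969.6 and 57339 (-0.82 ± 0.071 (SE)), and the elongase ELOVL5 from 27477, 23919 and 25481 to 14801, 14570.3 and 15474 (-0.78 ± 0.061 (SE)). All wild-type libraries lay above all edited ones for these genes. Among cholesterol genes, the sterol carrier STARD4 fell from 7292, 6277 and 7291 to 4263, 3978 and 4625 (-0.70). FASN, the fatty acid synthase, was not called (0.041). The count of lower cholesterol genes ranged from 10 to 16 over the alternatives run. A sterol regulatory element motif was found in 0.0662% of promoters, and in 1 of 23 list members, SREBF2.

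Of 17 tested mucins and secretory cell genes 7 were higher, none was lower and 10 were not called (median 0.45). Beside MUC5B and CRISP3, the gel-forming mucin MUC5AC rose from 1194, 1209 and 1399.7 to 3033, 2432 and 2762 (1.11 ± 0.28 (SE), adjusted p = 0.0068). AGR2, a disulfide isomerase needed to fold mucins, rose from 116728, 111844 and 104205 to 203412, 213128 and 197573 (0.88 ± 0.094 (SE), adjusted p = 3.7e-06). The trefoil factor TFF1 rose from 650.0, 568 and 483 to 1080.2, 885 and 1032 (0.82) and CREB3L1, a membrane-bound transcription factor of the secretory pathway, from 272, 220.0 and 251 to 519, 504 and 614 (1.14).

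Epithelial junction genes went both ways, 10 higher and 8 lower of 27, with a median of 0.05. CDH1, the E-cadherin gene and a classical target of Snail repression, was slightly higher, 26688, 30328 and 28606 against 35810.3, 32369 and 34093 (0.26 ± 0.06 (SE), adjusted p = 0.0037). Claudins form the seal of tight junctions. CLDN2, a pore-forming claudin, rose from 1508, 1259.7 and 1387 to 4643, 3866 and 4035 (1.59 ± 0.095 (SE), adjusted p = 9.6e-09), CLDN7 from 167, 172 and 130.0 to 360.1, 392 and 405 (1.30) and CLDN4 from 115, 135 and 124 to 269, 196 and 193 (0.80), while CLDN1, the most abundant of them, fell from 52495, 50924 and 51256 to 33428, 38345 and 36807 (-0.51). The polarity gene CRB3 rose (0.96) and the desmosomal plakophilin PKP2 fell (-0.63). Of 12 keratins 6 were higher, 1 was lower and 5 were not called. KRT7 rose from 48633, 51735 and 50287 to 69029, 74409.9 and 68677 (0.49) and KRT4 fell from 2029, 1655 and 1858 to 841, 783 and 885 (-1.14).

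Of 15 genes published as repressed by SNAI1, 6 were higher and 4 lower, with a median of 0.05. The higher ones included CDH1, CLDN4, CLDN7, CRB3 and OCLN (0.33). The lower ones included CLDN1, HNF4A (-0.50) and VDR (-0.80). Among the mesenchymal and cytoskeletal genes 4 were higher and 2 lower of 14. VIM, the intermediate filament of mesenchymal cells, fell from 22769, 20939.7 and 20612 to 14209, 14565 and 14583 (-0.57 ± 0.087 (SE), adjusted p = 0.00013). CDH2, N-cadherin, rose at low counts from 9.97, 8.24 and 15 to 22.7, 29 and 19.6 (1.06), and FSTL1 (0.51) and the smooth muscle actin ACTA2 (0.58) rose. Among 14 transcription factors of epithelial-mesenchymal transition 2 were higher and 3 lower (median -0.17), with log2 fold changes from -0.65 to 1.24. TWIST1 (-0.65), SOX9 (-0.59) and SOX4 (-0.44) were the lower ones. The number higher was 0 to 2 on leaving out single libraries. ZEB1 was -0.22 and not called, although its lines did not overlap (2837, 2828 and 2872 against 2260.5, 2538 and 2552). It passed in 3 alternatives, among them the fit on the 6 untreated libraries alone (adjusted p = 0.021).

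Integrins and laminins were more often higher than lower, 11 against 3 of 21 tested, with a median of 0.26. ITGB6, the epithelial integrin subunit that activates latent TGFβ, rose from 355, 342 and 314 to 1238, 1194 and 1154 (1.83 ± 0.077 (SE), adjusted p = 3.2e-10). ITGA3, a laminin receptor, rose from 12012, 11529 and 12046 to 24540.0, 23469 and 23954 (1.02 ± 0.05 (SE)). LAMA1 rose from 21.9, 14.8 and 19.3 to 73.3, 69.7 and 105 (2.08). The vitronectin receptor subunit ITGB5 fell from 32215, 30025 and 31755 to 20462, 19165 and 20519 (-0.64), and the fibronectin receptor subunit ITGA5 fell by -0.50. Matrix proteases and their inhibitors were 7 higher and 4 lower of 18, with a median of -0.06. PLAU, the urokinase protease, and its receptor PLAUR rose together, PLAU from 1355, 1273 and 1207 to 3989.6, 3786 and 4006 (1.62 ± 0.061 (SE)) and PLAUR from 1021, 942 and 979 to 2094, 2298 and 1882 (1.09 ± 0.089 (SE)). Collagens and crosslinkers were 5 higher and 4 lower of 23, with a median of -0.017. The basement membrane collagens COL4A2 (1.24) and COL4A1 (0.74), which are transcribed from a shared promoter, both rose. COL1A1 fell from 628, 548.7 and 686 to 409.6, 319.6 and 351 (-0.79). TGFA, a ligand of the EGF receptor, rose from 291, 353 and 273 to 727, 836 and 786 (1.36), in a list of EGFR and MAPK feedback genes with 7 higher and 7 lower of 23. WNT target genes and antagonists were 3 higher and 3 lower of 12, with a median of 0.07. LEF1 rose from 33.9, 38.7 and 22.6 to 119.7, 144 and 154 (2.13) and AXIN2 by 0.77, while the antagonist SFRP1 fell (-0.89).

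Published miR-22 targets other than SNAI1 were 6 higher and 2 lower of 16, with a median of 0.14. The higher ones were led by CDKN1A, followed by the deacetylase HDAC4, which rose from 1796, 1916 and 2011 to 2903, 2841 and 2517 (0.53), and MECOM (0.50). Among the lower ones, TIAM1 had counts of 27.9, 17.3 and 27.9 against 22.7, 8.58 and 0, and its call was lost in 9 of the 12 fits that left out 1 library. Its log2 fold change of -2.03 became -0.72 without edited untreated repeat 3.

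By chromosome, 16771 of the tested genes could be placed on an autosome or X, with a median log2 fold change of -0.01. Chromosome 9 stood highest, with a median of 0.16 over 682 genes, 30.1% of them higher and 7.62% lower, against 15.6% and 20.3% over all placed genes. The median stayed between 0.148 and 0.155 when each untreated library was left out and between 0.153 and 0.177 under other scalings. It did not come from 1 stretch: 14 of its 16 windows of 5 Mb with at least 15 genes had a median above 0, against 169 of 421 windows in the genome. With TGFβ, in the other 6 libraries, the chromosome 9 median between the lines was 0.18 and all 16 windows were above 0, against 262 of 421 in the genome. Chromosome 8 followed with 0.071 untreated and 0.15 with TGFβ. Among abundant genes of chromosome 9, the ribosomal protein genes RPS6 (111068, 100961 and 97353 in wild type against 142844, 142656 and 137275, 0.45) and RPL12 (0.45) were higher. All 25 ribosomal protein genes listed from the genome were above 0, with a median of 0.23. Of these 8 were called higher. The count was 2 without wild-type untreated repeat 2 or 3 or edited untreated repeat 2, 3 without edited untreated repeat 1 or 3, 5 without wild-type TGFβ repeat 2 or edited TGFβ repeat 3, 16 and 18 without wild-type TGFβ repeat 1 and 3, and 20 with the 6 untreated libraries alone in the fit.

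**Figure D4:**
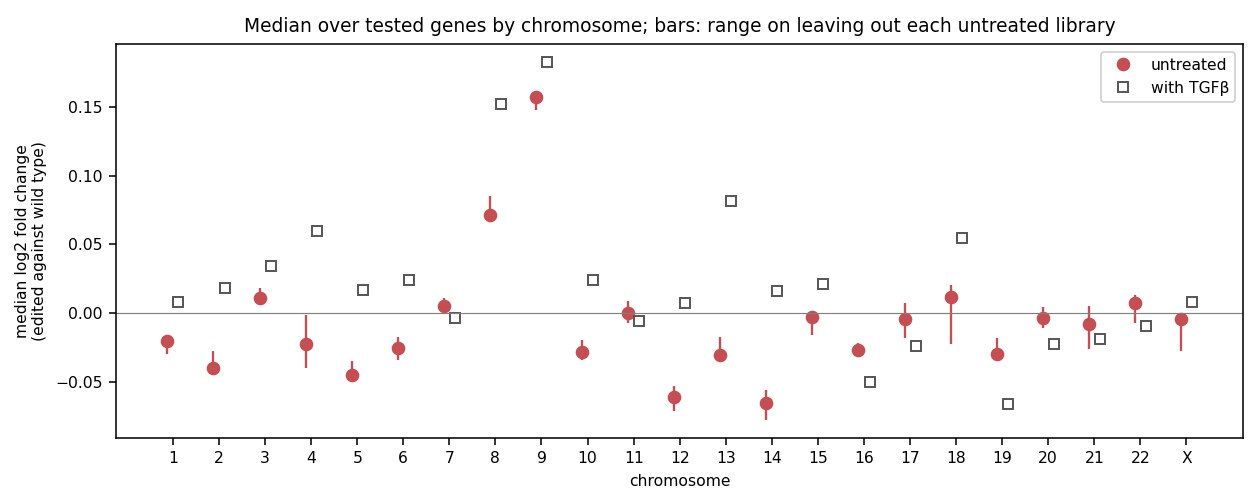
Median log2 fold change of the edited line against wild type over tested genes (vertical axis) by chromosome (horizontal axis), untreated (filled red) and with TGFβ (open squares); red bars give the range when each untreated library is left out. Chromosome 9 lies highest in both contrasts (0.16 and 0.18) and chromosome 8 next (0.071 and 0.15).

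The contrast between the lines was then read beside the same contrast in the 6 TGFβ-treated libraries, which share no library with it. With TGFβ 1510 genes (7.38%) were higher and 884 (4.32%) lower in the edited line. These counts were less stable than the untreated ones: the number lower was 417 without wild-type TGFβ repeat 2, 1580 without wild-type TGFβ repeat 3 and 491 without edited TGFβ repeat 3, which also took the number higher to 896. With library totals set equal, the split was 1254 higher and 1355 lower. In all, 1112 genes were called in the same direction in both, 669 higher and 443 lower, which is 17.1% of the untreated calls and 46.4% of the TGFβ calls. Another 234 were called in opposite directions. Across genes, which are not independent replicates, the log2 fold changes had a Pearson r of 0.279. The difference between the contrasts was itself called for 3395 genes (16.6%), 2740 of them among the untreated calls.

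Some of the large increases had no called difference between the conditions, and others did. SLITRK6 was 5.32 untreated and 4.95 with TGFβ, and the difference was not called (adjusted p = 0.72). CRISP3 was 3.51 and 4.0, CHL1 3.17 and 2.92, ADGRL3 2.64 and 3.15, and SMOC1 1.16 and 1.25, none with a called difference. CDH12 (6.92 and 3.86), DCLK1 (4.06 and 1.87) and CALCB (3.09 and 1.19) had a smaller contrast with TGFβ, each with a called difference, as had LINC01433, SEMA5A and NTRK3. Of the 612 genes at least 2-fold higher untreated, 169 (27.6%) were also called higher with TGFβ, and of the 412 lower 63 (15.3%) were called lower. In the TGFβ contrast the neuronal adhesion list had 9 of 17 higher, with a median of 0.45, and PCDH9, which was lower untreated, was among them.

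For other genes the contrasts differed. CDKN1A was higher by 1.28 untreated and by 0.22 with TGFβ (not called), where wild type had 21677, 19761 and 18825 and the edited line 24789, 21376 and 24082. The difference of the contrasts was -1.06 ± 0.10 (SE) (adjusted p = 7.5e-06). SEC24D went from 1.42 to -0.066, HSP90AA1 from -1.31 to -0.18 and MCM3 from -1.27 to -0.22, each with a called difference. The p53 list had 4 higher and 1 lower of 31 with TGFβ (median 0.08), and 21 of its members had a called difference. In the licensing list 17 of 25 were lower with TGFβ (median -0.28), and 16 had a called difference. In the mitosis list the TGFβ contrast had 14 of 26 lower, with a median of -0.23, against 6 untreated. Only 5 of its members had a called difference, where the share over all genes was 16.6%.

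Some genes changed direction. CXCL8, lower untreated, was higher with TGFβ (0.57, adjusted p = 0.00092), with 8654, 8589 and 8229 in wild type against 12419, 11878 and 13679. PCDH9 did the same (0.50), from 7769, 8257 and 8969.7 in wild type to 11454, 11946 and 11872 in the edited line. In both cases the 3 libraries of the lines were separated in opposite order in the untreated and the treated sets.

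**Figure D5:**
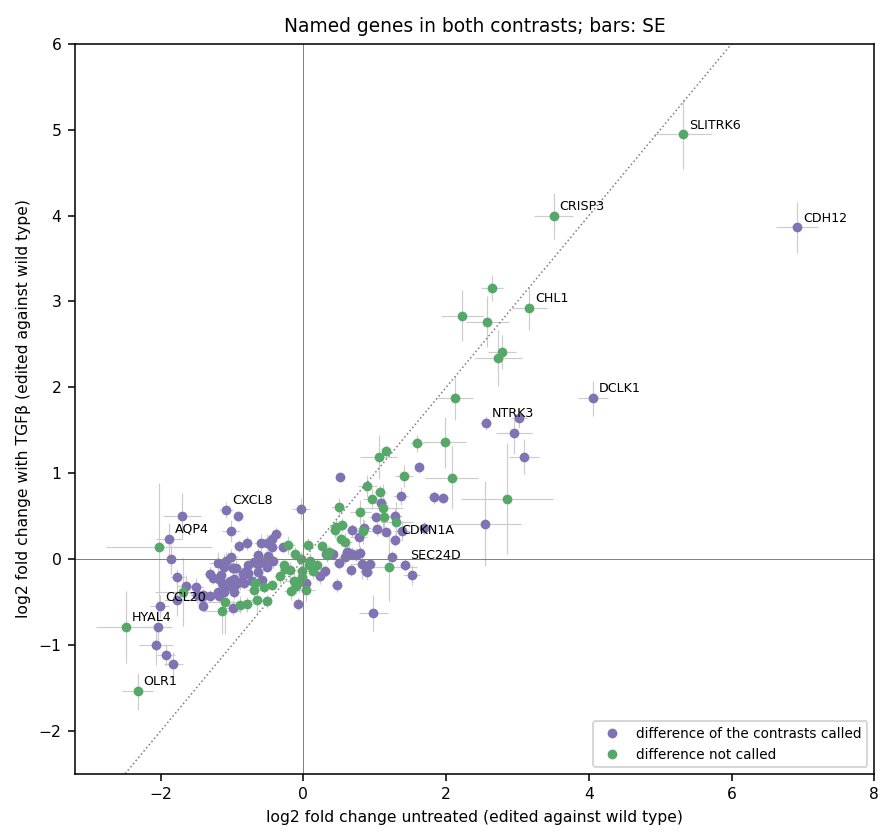
Log2 fold change of the edited line against wild type untreated (horizontal axis) and with TGFβ (vertical axis) for the genes named in the text; bars are SE, the dotted line marks equal values, purple points have a called difference between the contrasts and green points do not. SLITRK6, CRISP3 and CHL1 lie near the line of equal values, whereas CDKN1A, SEC24D and CCL20 lie nearer to 0 on the vertical axis.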

How the data were processed

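RNA-seq of A549 cells was deposited by the authors as 1 table of normalized counts, a signal per gene in which reads are divided by a library size factor. HISAT2, StringTie, featureCounts, DESeq2 and the build GRCh38.p14 are named in the submitters' processing notes, with no versions. Total RNA was isolated with RNeasy columns and libraries were made at Genewiz, per the labels' protocols. The labels do not say how strand or multi-mapping reads were treated. The deposited signal steps gave whole reads for 100% of values in every library, and recomputed median-of-ratios factors matched the deposited scaling.

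The test was limma 3.58.1 with a mean-variance trend (R 4.3.3) on the log2 of each value plus 1, with 4 group means over 12 libraries, a two-sided test and Benjamini-Hochberg adjustment over 20456 genes. Fold changes on this scale are a difference of mean logs and for low genes depart from the ratio of means. edgeR 4.0.16 and DESeq2 1.42.0 on the recovered reads were alternatives, and the fit was tested on simulated data, where the share of calls that fell on unchanged genes was above the nominal level and small changes were recovered less often than large ones. The 48 gene lists, 6 later ones and the named genes (the 12 largest changes each way at a mean of 100, the 8 largest at 5000, up to 6 per list and direction, and fixed genes) were chosen with earlier results of these data known. List members were given by counts and medians with no test. Results for some genes are not reported here. Entries whose names had turned into dates (28) stayed in the fit unnamed. Clone names (with a dot) and LOC names also stayed in the fit. They were passed over when the largest changes were picked, and so were the date names. Promoters, the microRNA and positions came from RefSeq (GRCh38.p14; 16773 genes placed), and the untranslated region from GENCODE 29.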

Additional observations from a re-analysis of the deposited data

Results flagged for a closer look

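The contrast between the lines without TGFβ was set against the contrast with TGFβ by the interaction term of the same fit, and the genes below are those with values in the report or the other observations whose difference passed an adjusted p of 0.05. The number after each gene is the log2 fold change between the lines with TGFβ minus that without. A positive number belongs to a gene whose contrast was more positive with TGFβ, which for a gene lower in the untreated edited line is a smaller decrease or a turn upward.

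Among genes of growth and DNA synthesis, positive differences were found for E2F1 (0.98), E2F7 (0.64), MCM2 (0.66), MCM3 (1.05), MCM5 (0.56), MCM6 (0.77), GINS2 (1.08), CDT1 (1.05), POLD1 (0.68), CHAF1B (0.79), KIAA0101 (1.85), WDHD1 (0.97), RRM2 (0.88), RAD54L (1.33), EXO1 (0.76), UHRF1 (0.73), FANCA (0.60), CCNE1 (0.43), CDK2 (0.75), CCND3 (0.67) and CCNG1 (0.59). Negative ones were found for CDKN1A (-1.06), ZMAT3 (-0.68), PLK3 (-0.34), SPATA18 (-0.56), PHLDA3 (-0.56), MDM2 (-0.43), CCND1 (-0.26), INCENP (-0.44), PLK1 (-0.31) and CDC6 (-0.46). The DNA synthesis genes named here, CDC6 aside, were lower in the edited line without TGFβ by more than with it. That restates the sign of the called difference for which they were picked. A difference was called for 16 of 25 licensing and 15 of 23 fork genes.

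Genes of inflammation and early response with positive differences were CCL20 (1.46), CCL2 (1.56), CXCL8 (1.66), CXCL3 (1.16), CXCL1 (1.34), CXCL2 (0.84), ICAM1 (1.18), BIRC3 (0.62), NFKBIZ (0.58), TNFAIP3 (0.79), NFKBIA (0.40), IL6ST (0.71), LIF (0.42), JUN (1.06), FOSB (1.03) and NR4A2 (0.81). The negative ones were CXCL16 (-0.62), ZC3H12A (-0.35), IL11 (-1.25), IL15 (-0.49) and HSPA1A (-0.77). Lipid genes had positive differences, namely FADS2 (0.86), SCD (0.66), ELOVL5 (0.71) and STARD4 (0.66).

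Secretory and epithelial genes had negative differences for SEC24D (-1.49), AGR2 (-1.04), TFF1 (-0.88), KRT7 (-0.54), KRT80 (-1.06), LAMP3 (-1.70) and CHGB (-0.72) and positive ones for CLDN1 (0.42), PKP2 (0.47), HNF4A (0.53) and VDR (0.98). The mesenchymal genes VIM (0.53) and FSTL1 (0.44) had positive differences, as had the transition factors SOX9 (0.34), SOX4 (0.67) and SNAI1 (0.62). Adhesion, matrix and signalling genes were negative for ITGB6 (-1.11), ITGA3 (-0.52), PLAU (-0.55), PLAUR (-0.43), COL4A2 (-1.21), COL4A1 (-0.69), TGFA (-0.63), AXIN2 (-0.52) and PHLDB2 (-0.78) and positive for ITGB5 (0.60), ITGA5 (0.52) and SFRP1 (0.63). Genes of neurons and guidance were negative for DCLK1 (-2.19), CDH12 (-3.06), NTRK3 (-0.97), SEMA5A (-1.48), CALCB (-1.90), TENM2 (-2.14), EPHB2 (-1.33) and UNC5B (-1.61) and positive for PCDH9 (1.41), CNTN1 (0.68), NTN1 (0.98), EFNA1 (0.88), SEMA3A (0.88) and ANKS1B (1.25). Other genes with large changes were negative for LINC01433 (-1.38) and SLC16A4 (-0.84) and positive for PALM3 (1.07), AQP4 (2.12), PRSS35 (0.60), CALCRL (1.29), H19 (2.20), UGT1A7 (0.81), UGT1A1 (1.04), UGT1A9 (0.69), SLC2A3 (0.86), HSP90AA1 (1.13) and MGAT5 (0.95). The families of protein export and folding under the other observations gave SEC23B (-0.80), COPA (-0.57), SEC61A1 (-1.0), SSR1 (-0.99), SEC24A (-0.54), CACYBP (0.78) and FKBP4 (0.48). The value for CDH12 rests on wild-type libraries with 0 reads and so depends on the pseudocount.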

How the results depend on the processing

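The alternatives changed the pseudocount, the filter, the scaling, the variance model, the libraries in the fit and the test, 12 in all, and 12 more left out 1 library each. Genes higher in the untreated edited line numbered 2927 (2255 to 3443 over the alternatives) and genes lower 3587 (2726 to 3987), all within 1.5 times. No named gene changed direction while called. Of the 167 named genes that were called, 161 kept the call throughout and 6 lost it in 1 or more alternatives (TMEM189, E2F4, INCENP, CCL26, IL1A and TIAM1). All of these but TMEM189, 5 genes, also lost it in 1 or more alternatives other than leaving out a library. Of the 18 named genes that were not called, 4 passed in 1 or more alternatives. Same-numbered repeats of the untreated lines did not deviate together (correlations -0.0014, 0.035 and 0.0030), so no pairing by number was seen in the untreated libraries. Between the lines with TGFβ the correlation was 0.13 for repeat 1 of both. It was 0.15 for edited repeat 2 with wild-type repeat 3. With the replicate number as a block the counts were 3229 higher and 3839 lower. With edgeR on the recovered reads they were 3193 and 3336, and with DESeq2 3243 and 3807. The TGFβ contrast moved more: its lower genes, 884, became 1355 with equal totals and 1345 with quantile normalization, and leaving out single libraries gave 417 to 1580 lower and 896 to 2249 higher. The cause was not tested. For named genes at counts under 50 the fold change rests on few reads.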

Other observations

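Gene families of protein export and folding were drawn up after SEC24D and HSP90AA1 had been seen among the abundant changes, so their counts describe these libraries and support nothing on their own. Each family was entered whole. Of 13 COPII coat genes, which bud vesicles from the endoplasmic reticulum, 8 were higher in the untreated edited line and 0 lower, with a median log2 fold change of 0.29. SEC23B rose from 14677, 16747 and 15593 to 24137, 25894 and 24452 (0.67) and SEC24A from 4838, 4689.5 and 5109 to 7277, 7005 and 8150.0 (0.61). Of 9 COPI coat genes, which return vesicles to the endoplasmic reticulum, 7 were higher and 1 lower (median 0.49), with COPA at 25427, 28072 and 26166 in wild type and 42073, 40373 and 39692 in the edited line (0.62). Of 15 genes of the translocon, signal peptidase and TRAP complex 11 were higher and 0 lower (median 0.51). SEC61A1, the pore of the translocon, rose from 21792, 24249 and 21892 to 40615, 42821 and 40616 (0.87) and SSR1, a TRAP subunit, from 21390.1, 22101 and 20936 to 39777, 41929 and 41767 (0.94). Among 12 cargo and KDEL receptors 7 were higher (4 to 7 over the alternatives), with a median of 0.27. With TGFβ none of these 4 families had a member called higher between the lines, 2 translocon genes (SEC61G and SEC11C) were called lower, and the medians lay between -0.063 and 0.039. The difference between the contrasts was called for 6 COPII, 8 COPI, 11 translocon and 4 receptor genes.

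Cytosolic chaperones moved the other way. Of 16 genes of HSP90 and its co-chaperones 11 were lower and 2 higher (median -0.32), with 8 to 11 lower over the alternatives. CACYBP fell from 16749.7, 12731 and 13586 to 6775, 6646 and 6576 (-1.10), FKBP4, an HSP90-bound immunophilin, from 18758, 14556 and 16179 to 10014, 9678 and 10108 (-0.72) and AHSA1, the activator of the HSP90 ATPase, from 14884, 11620.0 and 13040.0 to 8337, 7848 and 8314 (-0.68). Of the 8 subunits of the CCT chaperonin, which folds actin and tubulin, 5 were lower and 0 higher (median -0.38). With TGFβ 2 of the HSP90 genes and 0 of the CCT genes were called lower by the limma fit.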
